A study of Mus musculus with 81 samples.

Results

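Dentate granule cells (DGCs) of disomic (2N) mice were compared by the diet of their dams, choline supplemented (ChP) or normal (ChN). The members were chosen by label alone, as every DGC library of a 2N mouse, and numbered 13 of the 81 libraries of the series, 7 ChP and 6 ChN. The series holds RNA-seq of 3 excitatory populations, CA1 pyramidal neurons (PNs), CA3 PNs and DGCs, taken by laser capture from the hippocampus of Ts65Dn trisomic (Ts) mice and their 2N counterparts. All mice were male and were killed at about 6 months of age (MO). The normal chow held 1.1 g/kg choline chloride and the supplemented chow 5.0 g/kg, given to the dam through pregnancy and lactation until postnatal day 21, after which every mouse in both groups ate the normal chow. The groups used here are thus 2N ChN and 2N ChP DGCs, set beside Ts DGCs of both diets (15 libraries), 2N CA3 PNs (12) and 2N CA1 PNs (13). The 2N mice came from the same mixed colony as the Ts mice and lack the extra chromosome segment. Each library was 1 animal's captured DGCs. Which mice were littermates was not analysed here. The diet was given to the dam, but every test took the mice as independent. Where mice shared a dam, standard errors and p may be too small.

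DGCs are the principal excitatory neurons of the dentate gyrus and send mossy fibers to CA3. They receive entorhinal input, express the transcription factor Prox1 throughout life, and are among the few neurons still generated after birth. Choline enters cells through choline transporter-like proteins such as Slc44a1 and is phosphorylated and built into phosphatidylcholine, the main membrane phospholipid. It is also the precursor of acetylcholine and, once oxidized to betaine, a methyl donor for methionine and S-adenosylmethionine, which feeds DNA and histone methylation. The comparison asks whether the perinatal diet left a difference in the adult DGC transcriptome of animals with a normal chromosome number.

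No gene passed the correction for multiple testing between ChP and ChN 2N DGCs. With edgeR's quasi-likelihood test, 0 of 13181 genes (0%) had a Benjamini-Hochberg adjusted p under 0.05. The study's own cut for DEGs, an unadjusted p, was kept. At an unadjusted p under 0.05 the DEGs numbered 728 (5.52%), where 659 would be the number if no gene differed. Of these, 346 (2.62% of genes tested) were higher in ChP and 382 (2.9%) were lower, and a gene called higher or lower hereafter passed only this unadjusted cut. The log2 fold change (LFC, ChP minus ChN) was under 1 in size in 612 DEGs (84.1%), with a median size of 0.48, and the median LFC of all genes was -0.0058. At an unadjusted p under 0.001 there were 15 genes, against 13.2 if none differed. In 12 genes (0.091%) the 2 groups of libraries did not overlap, 7 with every ChP library above every ChN library and 5 the reverse. These libraries can be split in only 1716 ways, so some of 13181 genes would separate fully even if none differed. A lack of overlap therefore describes a gene and does not set it apart. The median standard error of the LFC was 0.22 over all genes and 0.12 over the 4029 genes with a mean of 50 CPM or more, where CPM are counts scaled to a common library size.

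**Figure D1:**
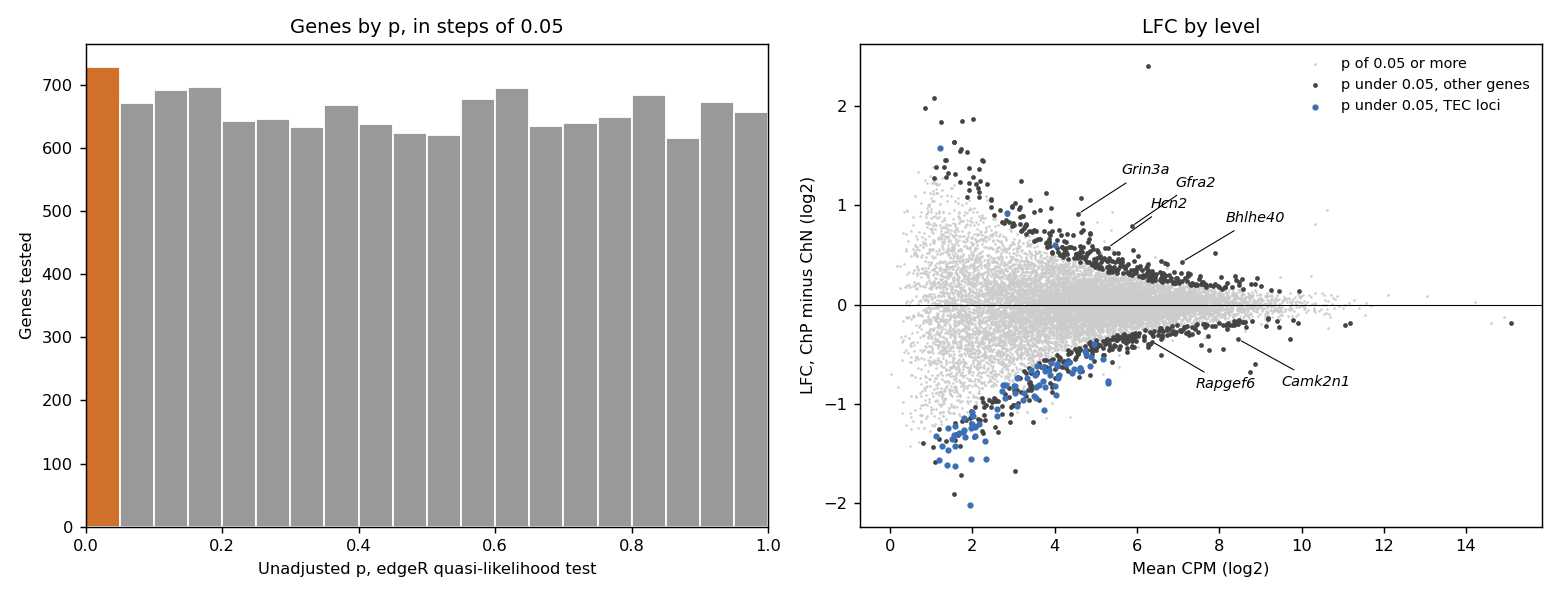
Left, number of the 13181 genes in each step of 0.05 of the unadjusted p; the first step holds 728 genes and the others 616 to 697. Right, LFC against mean CPM on a log2 axis, where each point is a gene; the DEGs annotated as TEC loci (blue) lie almost all below 0.

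Depth and the naming of mice went with diet. Total expected counts were 696340 to 1469540 in ChN (median 1038020) and 358355 to 1160838 in ChP (median 929066), so that 3 ChP libraries (mice 15-296, 15-336 and 16-273) lay below every ChN library. The difference in totals did not reach a p under 0.05 (exact permutation test, two-sided, p = 0.122, adjusted p = 0.175 over 7 measures per library). Mouse names begin with 15 in 2 ChN and 4 ChP mice, with 17 in 4 ChN mice, with 14 in 1 ChP mouse and with 16 in 2 ChP mice. What the prefix stands for is not given in the sources used here, and outside prefix 15 it cannot be told apart from diet. Without the 3 shallow libraries there were 712 DEGs (5.4%) and 0 with an adjusted p under 0.05. Among mice of prefix 15 alone there were 597 DEGs (4.53%), of which 173 were DEGs in all mice (23.8% of those 728). The mean log2 CPM of 62 genes triplicated in Ts65Dn was 5.04 to 5.37 in the 2N DGC libraries and 5.72 to 5.92 in the Ts DGC libraries, so the 2N labels held for all 13.

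Markers of DGCs were high in both groups. All 10 DGC markers were tested, none was a DEG, and their summed level was 3011 to 3244 CPM in ChN and 3124 to 3470 CPM in ChP. Prox1 was 806 to 963 CPM in ChN and 836 to 1076 CPM in ChP (LFC 0.08 ± 0.07 SE, adjusted p = 0.947). Calb1, the calcium-binding protein calbindin of mature DGCs, had an LFC of 0.22 ± 0.11 (adjusted p = 0.911), with ChN at 174 to 258 CPM and ChP at 166 to 310 CPM. Of the 57 marker genes of 13 cell types that could be tested, 1 was a DEG (1.75%), the oligodendrocyte precursor marker Gpr17, whose highest value (27.5 CPM) was that of 1 ChP library, mouse 16-273, with the other ChP libraries at up to 6.15 CPM. Summed astrocyte markers were 827 to 1148 CPM in ChN and 786 to 1057 CPM in ChP. Oligodendrocyte markers summed to 166 to 253 and 116 to 243 CPM, microglia markers to 36.1 to 54.9 and 30.7 to 66.2 CPM, and inhibitory neuron markers to 226 to 311 and 204 to 293 CPM, so these ranges overlapped between diets. Median LFCs were 0.40 over the 5 oligodendrocyte markers tested and -0.40 over the 7 microglia markers. They were 0.18 over 8 astrocyte and -0.08 over 8 inhibitory neuron markers. Vascular markers summed to 13.7 to 22.5 CPM in ChN and 19.4 to 47.4 CPM in ChP, with a median LFC of 0.72 over the 3 tested, none of them a DEG. CA3 PN markers summed to 79.8 to 127 and 51.5 to 114 CPM, and all 3 of them that were tested had negative LFCs (median -0.59). The part of these other cell types in the results was not tested. Of 5 blood markers 4 had no count in any library, and Hba-a1, like Ttr of the choroid plexus, had a count in 1 library. In bulk samples fewer cells of a type and less RNA per cell cannot be told apart.

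Gfra2, the GPI-anchored receptor for the neurotrophic factor neurturin, was higher in ChP with the smallest p of all genes. It lies on the plus strand at chr14:71127472-71217280 (GRCm39). Its level was 22.2 to 51.7 CPM in ChN (median 43.8) and 52.8 to 92.2 CPM in ChP (median 79.3), so every ChP library lay above every ChN library. The LFC was 0.79 ± 0.16 (SE), with an adjusted p of 0.0607, just outside the threshold. Without the 3 shallow libraries the LFC was 0.79, and among mice of prefix 15 it was 0.62. Its adjusted p depended on the setting. It was under 0.05 when library totals replaced TMM (0.0495), when all 28 DGC libraries shared 1 fit (0.0224) and when no filter was applied (0.00192). It was 0.0932 with DESeq2, 0.365 with limma-voom, 0.352 with a surrogate variable, 0.244 without the 3 shallow libraries, 0.846 among mice of prefix 15 and 0.996 at equal depth. Equal depth here is 1 random thinning of every library to the smallest total (358355), which leaves fewer counts. Leaving out 1 library at a time gave an adjusted p of 0.0199 to 0.449, the highest without ChN mouse 17-21, whose level of 22.2 CPM was the lowest, where the LFC was 0.67.

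The 300 bases around the start of the canonical Gfra2 transcript, from 250 before it to 50 from it, are shown with those of Rapgef6, the lower gene with the smallest p among the named genes whose groups did not overlap. CpG sites, the substrate of DNA methylation, are in capitals. Both were read from GRCm39, Gfra2 from chr14:71127222-71127521 and Rapgef6 from chr11:54413421-54413720, on the plus strand.
Gfra2: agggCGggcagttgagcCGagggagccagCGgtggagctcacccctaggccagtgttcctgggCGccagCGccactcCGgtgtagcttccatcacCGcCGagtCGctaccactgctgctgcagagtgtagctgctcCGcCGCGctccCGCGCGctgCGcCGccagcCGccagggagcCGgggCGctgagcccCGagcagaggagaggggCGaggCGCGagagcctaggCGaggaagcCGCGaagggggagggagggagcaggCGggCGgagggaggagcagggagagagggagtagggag
Rapgef6: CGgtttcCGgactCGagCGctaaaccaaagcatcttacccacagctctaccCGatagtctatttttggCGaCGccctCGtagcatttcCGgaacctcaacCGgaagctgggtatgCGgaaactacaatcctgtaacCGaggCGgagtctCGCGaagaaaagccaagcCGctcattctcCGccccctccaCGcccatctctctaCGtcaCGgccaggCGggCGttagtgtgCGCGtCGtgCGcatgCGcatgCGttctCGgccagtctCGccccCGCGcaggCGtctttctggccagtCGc
The Gfra2 window held 29 CpGs and the Rapgef6 window 34, more than in 82.5% and 90.6% of the promoter windows of the 11394 protein-coding genes tested. The median was 18 CpGs over all windows, 19 over the 317 higher and 18 over the 264 lower protein-coding DEGs. Methylation itself was not measured.

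The other 7 higher genes with the smallest p had adjusted p of 0.749 to 0.782, so none passed the correction. Grin3a, an NMDA receptor subunit, was 10.3 to 22.2 CPM in ChN (median 16.2) and 15.8 to 45.6 CPM in ChP (median 26.6), with an LFC of 0.91 ± 0.24 and adjusted p = 0.749. The ChP library of mouse 14-125 (15.8 CPM) lay in the ChN range, and the other ChP libraries lay above it. The LFC became 2.16 when counts were randomly thinned to the smallest library. Hcn2, a hyperpolarization-activated cation channel that sets resting membrane properties, was 21.5 to 40.0 CPM in ChN and 40.1 to 52.6 CPM in ChP, an LFC of 0.57 ± 0.17 (adjusted p = 0.782). Its groups did not overlap, but the nearest libraries were at 40.0 and 40.1 CPM. Bhlhe40, a transcriptional repressor in the circadian clock, was 94.5 to 162 CPM in ChN and 117 to 189 CPM in ChP (LFC 0.43 ± 0.11, adjusted p = 0.749). Among mice of prefix 15 its LFC was 0.16, and it was no DEG there.

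Exoc6b, an exocyst subunit in vesicle tethering, had medians of 75.6 CPM in ChN and 111 CPM in ChP (LFC 0.44 ± 0.12). Tubb2b, a beta-tubulin of developing neurons, had medians of 45.3 and 67.5 CPM (LFC 0.55 ± 0.15), but the LFC was -0.01 among mice of prefix 15, so that its difference was not seen there. Extl3, a glycosyltransferase of heparan sulfate synthesis, had medians of 92.9 and 122 CPM (LFC 0.41 ± 0.12), and Nwd2 had medians of 20.7 and 36.4 CPM (LFC 0.72 ± 0.21). In all 4 genes the lowest ChP library lay below the highest ChN library.

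The 8 lower genes with the smallest p also had adjusted p of 0.749 to 0.782. Camk2n1, an endogenous inhibitor of the kinase CaMKII, was 354 to 445 CPM in ChN and 218 to 401 CPM in ChP (LFC -0.35 ± 0.10, adjusted p = 0.782). Jph1, a junctophilin that holds the plasma membrane close to the endoplasmic reticulum, was 207 to 253 CPM in ChN and 173 to 215 CPM in ChP (LFC -0.31 ± 0.09, adjusted p = 0.749). Rapgef6, an exchange factor for Rap GTPases, was 82.8 to 102 CPM in ChN and 62.2 to 76.9 CPM in ChP (LFC -0.37 ± 0.12, adjusted p = 0.782). It was the named lower gene without overlap, and its LFC was -0.37 among mice of prefix 15 and -0.17 at equal depth, with an unadjusted p over 0.05 in both.

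Slc25a51, the mitochondrial NAD transporter, had medians of 116 CPM in ChN and 74.2 CPM in ChP (LFC -0.51 ± 0.14). Trmt6, a subunit of a tRNA methyltransferase, had medians of 33.0 and 23.4 CPM (LFC -0.71 ± 0.20). Ddhd1, a phospholipase, had medians of 97.4 and 70.2 CPM (LFC -0.42 ± 0.13), and its LFC was -0.04 among mice of prefix 15. Rhobtb3 had medians of 16.1 and 8.77 CPM (LFC -0.96 ± 0.29). Lig4, a DNA ligase of double-strand break repair, had medians of 20.0 and 11.7 CPM (LFC -0.81 ± 0.26). Under 13 other settings of the test, Gfra2, Grin3a, Slc25a51 and Camk2n1 were DEGs in every one. These genes were picked by their p in the same libraries, so this describes them and adds no evidence for them.

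**Figure D2:**
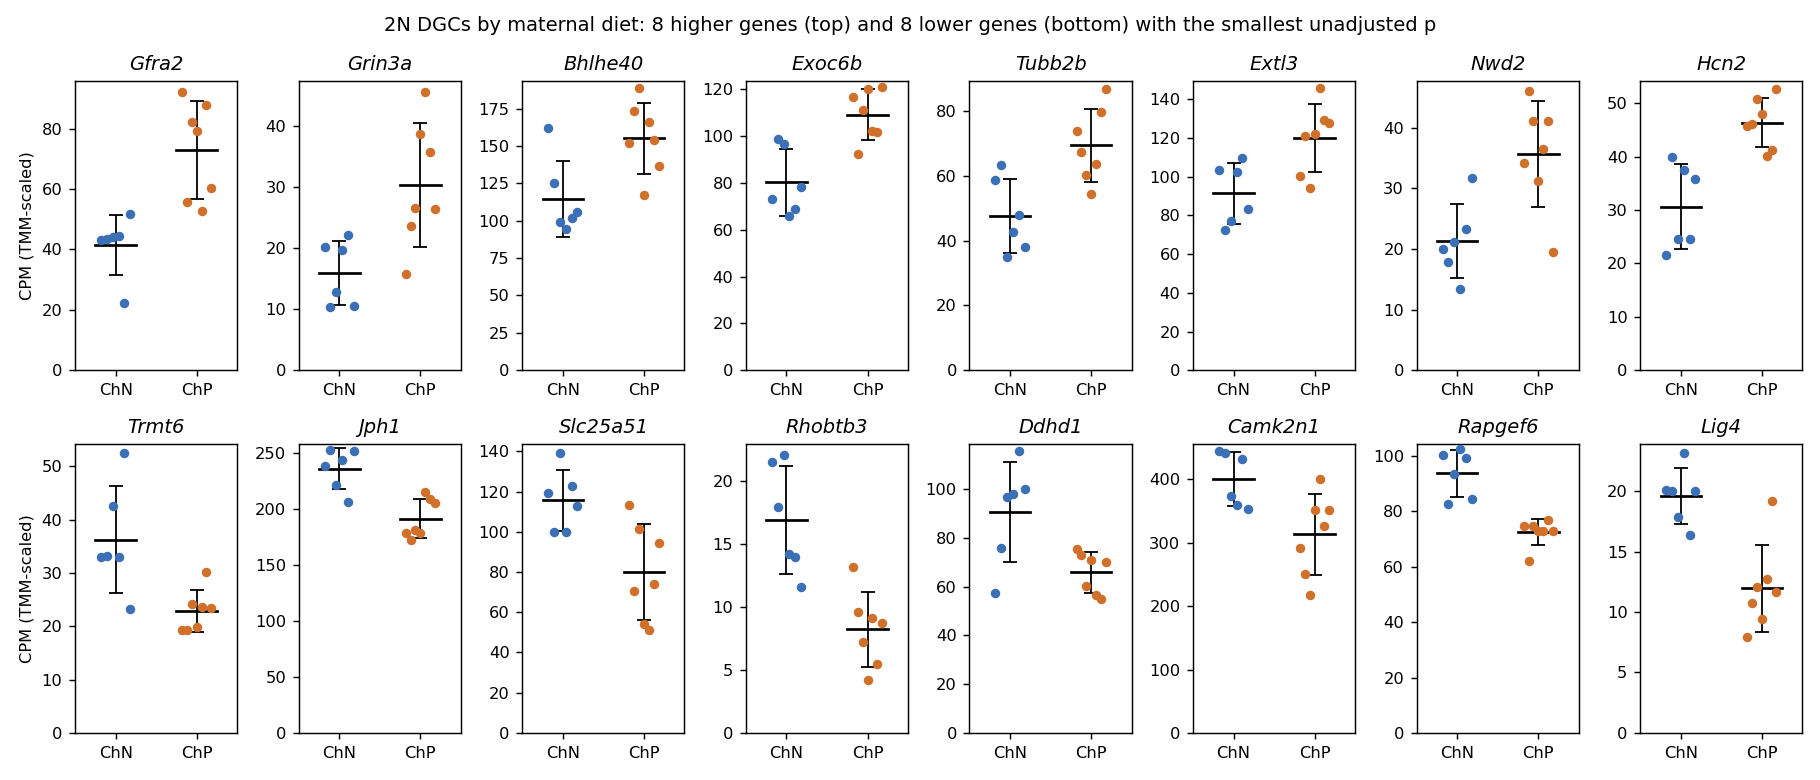
CPM scaled by TMM in each of the 6 ChN (blue) and 7 ChP (orange) libraries for the 8 higher (top row) and 8 lower genes (bottom row) named first; bars are the mean and SD, and each axis starts at 0. In Gfra2, Hcn2 and Rapgef6 the groups do not overlap, while in Grin3a, Nwd2 and Lig4 at least 1 ChP library lies in the ChN range.

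No gene that handles choline was a DEG by maternal diet. Of the 34 genes of choline uptake and phosphatidylcholine synthesis, 26 could be tested and 0 were DEGs, beside 5.52% of all genes, with a median LFC of -0.03 and single LFCs from -0.42 to 0.33. Slc44a1, the choline transporter of plasma and mitochondrial membranes, was 57.0 to 66.9 CPM in ChN and 46.7 to 74.7 CPM in ChP (LFC -0.11 ± 0.14, adjusted p = 0.984). Slc44a2, a related transporter, had an LFC of -0.42 ± 0.24 (adjusted p = 0.922), the largest of the list in size, with ranges of 13.7 to 34.8 and 8.24 to 23.6 CPM. Chka, the choline kinase that takes the first step, had an LFC of -0.04 ± 0.12 (adjusted p = 0.996), and its paralog Chkb one of -0.26 ± 0.28 (adjusted p = 0.979). The enzymes of the rate-limiting step, which make CDP-choline, were at -0.35 ± 0.22 for Pcyt1a (adjusted p = 0.927) and 0.21 ± 0.18 for Pcyt1b (adjusted p = 0.957). The last step is taken by Chpt1 and Cept1, at -0.06 ± 0.26 (adjusted p = 0.996) and 0.33 ± 0.23 (adjusted p = 0.927).

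On a scale that allows for transcript length, TPM, Chka was the more abundant kinase, with medians of 43.0 TPM in ChN and 49.7 TPM in ChP, against 13.02 and 9.14 TPM for Chkb. Etnk1, which phosphorylates ethanolamine, had medians of 66.9 and 60.0 TPM, and the phospholipase D family member Pld3 109 and 98.2 TPM. Pemt, which makes phosphatidylcholine by methylation in liver, had counts in 4 of 13 libraries, up to 1.84 CPM, and was not tested. The high-affinity choline transporter Slc5a7, choline acetyltransferase Chat and the vesicular transporter Slc18a3, which belong to cholinergic neurons, had no count in any library, where 3 counts would be 2.04 to 8.37 CPM depending on the library.

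The methyl-donor side gave 1 DEG of 31 genes tested (3.23%, median LFC -0.07). Amd1, the decarboxylase that turns S-adenosylmethionine towards polyamines, was 30.1 to 44.6 CPM in ChN and 34.6 to 62.8 CPM in ChP (LFC 0.34 ± 0.15, adjusted p = 0.873). Mat2a, which makes S-adenosylmethionine in brain, was 113 to 164 and 107 to 133 CPM (LFC -0.11 ± 0.10, adjusted p = 0.971). Ahcy, which clears S-adenosylhomocysteine, was near the floor, at 0 to 6.24 CPM. Bhmt, Bhmt2 and Dmgdh, enzymes of betaine use in liver and kidney, and the liver enzyme Mat1a had no count in any library.

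DNA methylation writers, erasers and readers held 0 DEGs of 18 tested (median LFC -0.05). Dnmt3a, a de novo methyltransferase, was 110 to 181 CPM in ChN and 98.9 to 150 CPM in ChP (LFC -0.19 ± 0.11, adjusted p = 0.922), and Dnmt1, the maintenance enzyme, 63.1 to 85.5 and 51.2 to 82.6 CPM (LFC -0.07 ± 0.13, adjusted p = 0.992). Both LFCs changed sign among mice of prefix 15. Of 43 histone methyltransferases and demethylases, 2 were DEGs (4.65%), both lower: Kmt5b, a histone H4 methyltransferase (LFC -0.27 ± 0.10, adjusted p = 0.782), and Kdm3a, a histone H3 demethylase (LFC -0.42 ± 0.18, adjusted p = 0.851). Imprinted genes, which are set by parental methylation, held 0 DEGs of 32 tested, with a median LFC of 0.01. Igf2 had counts in 4 libraries and was not tested.

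Receptors for acetylcholine, the transmitter made from choline in septal afferents, held 0 DEGs of 8 genes tested in a list with their esterases. The M1 muscarinic receptor Chrm1 was 345 to 446 CPM in ChN and 308 to 471 CPM in ChP (LFC 0.02 ± 0.08, adjusted p = 0.996). The nicotinic subunit Chrna7 was 28.5 to 50.2 and 27.1 to 36.4 CPM (LFC -0.32 ± 0.17, adjusted p = 0.922).

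Over 24 pathway lists together, 39 of 746 genes tested were DEGs (5.23%), a share near the 5.52% of all genes. The 6 lists of choline handling, DNA methylation, acetylcholine receptors, immediate early genes, cholesterol and imprinted genes held none. The count of DEGs in a list therefore describes its members and does not set it apart. Of the 36 DEGs named only through a list, 8 stayed DEGs among mice of prefix 15 and 18 without the 3 shallow libraries. At equal depth 9 of the 35 with a value did, and 12 of the 36 stayed DEGs whichever library was left out. Prefix 15 (2 ChN and 4 ChP mice) and the single random thinning leave less data. A call lost there therefore does not show that a difference was absent.

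In glutamate signalling, 3 of 28 ionotropic receptor and auxiliary genes were DEGs (10.7%, median LFC -0.02). They were Grin3a, the TARP Cacng8 (LFC 0.23 ± 0.11, adjusted p = 0.894) and the AMPA receptor auxiliary protein Gsg1l, which was lower (LFC -0.33 ± 0.13, adjusted p = 0.819). Grm2, a presynaptic group II metabotropic receptor, was 193 to 220 CPM in ChN and 209 to 247 CPM in ChP (LFC 0.19 ± 0.08, adjusted p = 0.851), and its LFC was 0.0096 at equal depth. The GABA-A receptor subunit Gabrb1 was the only DEG of 17 GABA receptor genes, at 346 to 407 and 273 to 382 CPM (LFC -0.16 ± 0.08, adjusted p = 0.873).

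Vesicle release genes held 5 DEGs of 47 tested (10.6%), 4 lower and 1 higher, with a list median of -0.02. The lower ones named were Syn3, a synapsin (LFC -0.42 ± 0.14, adjusted p = 0.782), the syntaxin Stx4a (-0.65 ± 0.26, adjusted p = 0.819), the priming factor Unc13b (-0.34 ± 0.14, adjusted p = 0.85) and the vesicle glycoprotein Sv2c (-0.22 ± 0.10, adjusted p = 0.873). Among mice of prefix 15 the LFCs of Unc13b and Sv2c were 0.0037 and 0.03, and at equal depth that of Syn3 was 0.20. Potassium channel subunits held 2 DEGs of 38, both higher, Kcng2 (0.40 ± 0.16, adjusted p = 0.819) and the Kv4 auxiliary subunit Dpp6 (0.15 ± 0.07, adjusted p = 0.873). The sodium channel beta subunit Scn3b was at 0.16 ± 0.08 (adjusted p = 0.873), and at 0.018 at equal depth.

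Of 21 circadian clock genes tested, 17 had an LFC above 0 (48.9% of all genes did), with a median of 0.10. The DEGs numbered 3 (14.3%), all higher, Bhlhe40, the repressor Nr1d1 (LFC 0.28 ± 0.14, adjusted p = 0.873) and the nuclear receptor Rorb (0.82 ± 0.40, adjusted p = 0.888). Nr1d1 was 52.7 to 73.1 CPM in ChN and 51.5 to 94.8 CPM in ChP. The time of day at which mice were killed was not analysed here. In Ts DGCs the list's median LFC was 0.00074.

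In energy metabolism, all 7 mitochondrially encoded OXPHOS genes tested had negative LFCs (median -0.18), and 2 were DEGs, mt-Co1 (1849 to 2653 CPM in ChN, 1759 to 2266 CPM in ChP, LFC -0.21 ± 0.07, adjusted p = 0.782) and mt-Nd1 (LFC -0.18 ± 0.08, adjusted p = 0.873). These transcripts share 1 genome and polycistronic precursors, so they are not independent. The other 6 of the 13, mt-Co2, mt-Co3, mt-Atp6, mt-Atp8, mt-Nd3 and mt-Nd4l, were listed at 0 in every library, so the deposited counts hold only part of the mitochondrial transcripts. Counts of the mitochondrial genes that had any were 7.15 ± 0.79% of a library in ChN (SD, n = 6) and 6.35 ± 0.76% in ChP (SD, n = 7). The difference did not reach a p under 0.05 (exact permutation test, two-sided, p = 0.0921, adjusted p = 0.175). Nuclear-encoded OXPHOS subunits were at a median of 0.05, with 1 DEG higher (Ndufa8, LFC 0.40 ± 0.15, and 0.0027 at equal depth) and 1 lower (Atp5mg, -0.64 ± 0.22) of 79. Of 37 enzymes of glycolysis and the TCA cycle, 3 were DEGs, all higher, among them Gpi1 (0.19 ± 0.09) and Aldoa (0.14 ± 0.06). Cytosolic ribosomal protein genes held 2 DEGs of 83 (2.41%), Rps15a and Rps3, both higher, at 0.49 ± 0.16 and 0.27 ± 0.11, and their reads can be shared with pseudogenes.

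Neurogenesis genes held 2 DEGs of 19 tested. Dcx, doublecortin of immature DGCs, was 7.17 to 34.8 CPM in ChN and 7.25 to 28.1 CPM in ChP (LFC -0.27 ± 0.25, adjusted p = 0.968). Tubb3, a neuronal beta-tubulin, was higher (0.35 ± 0.17, adjusted p = 0.875) and the transcription factor Sox4 lower (-0.40 ± 0.20, adjusted p = 0.902). Bdnf was 50.7 to 93.4 and 61.1 to 102 CPM (LFC -0.05 ± 0.14, adjusted p = 0.996), while its receptor Ntrk2 was 201 to 281 CPM in ChN and 233 to 294 CPM in ChP (LFC 0.18 ± 0.08, adjusted p = 0.873). Among mice of prefix 15 the LFC of Ntrk2 was 0.032. Of 23 genes in that list, Gfra2 and Ntrk2 were the DEGs (8.7%, list median -0.05). App was at 659 to 821 and 692 to 878 CPM (LFC 0.06 ± 0.07, adjusted p = 0.979).

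Among stress and turnover genes, the glucocorticoid receptor Nr3c1 was lower, at 109 to 155 CPM in ChN and 67.7 to 110 CPM in ChP (LFC -0.30 ± 0.11, adjusted p = 0.782). Cryab, a small heat shock protein, was higher (LFC 1.46 ± 0.49, adjusted p = 0.782) but at 0 to 4.46 CPM in ChN and 3.90 to 11.4 CPM in ChP, and the chaperone Hspa4l was at 0.27 ± 0.11 (adjusted p = 0.819). Without ChP mouse 15-334, the highest at 195 CPM, the LFC of Hspa4l was 0.15 and it was no DEG. Autophagy and lysosome genes held 4 DEGs of 49 (8.16%): Ctsa, Atg3 and Atg7 were higher by 0.44 ± 0.16, 0.46 ± 0.19 and 0.64 ± 0.31, and the kinase Ulk2 was lower by LFC -0.32 ± 0.12. None of these list genes had an adjusted p under 0.05 (0.782 to 0.902 for the DEGs other than Gfra2 and the other genes named first).

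**Figure D3:**
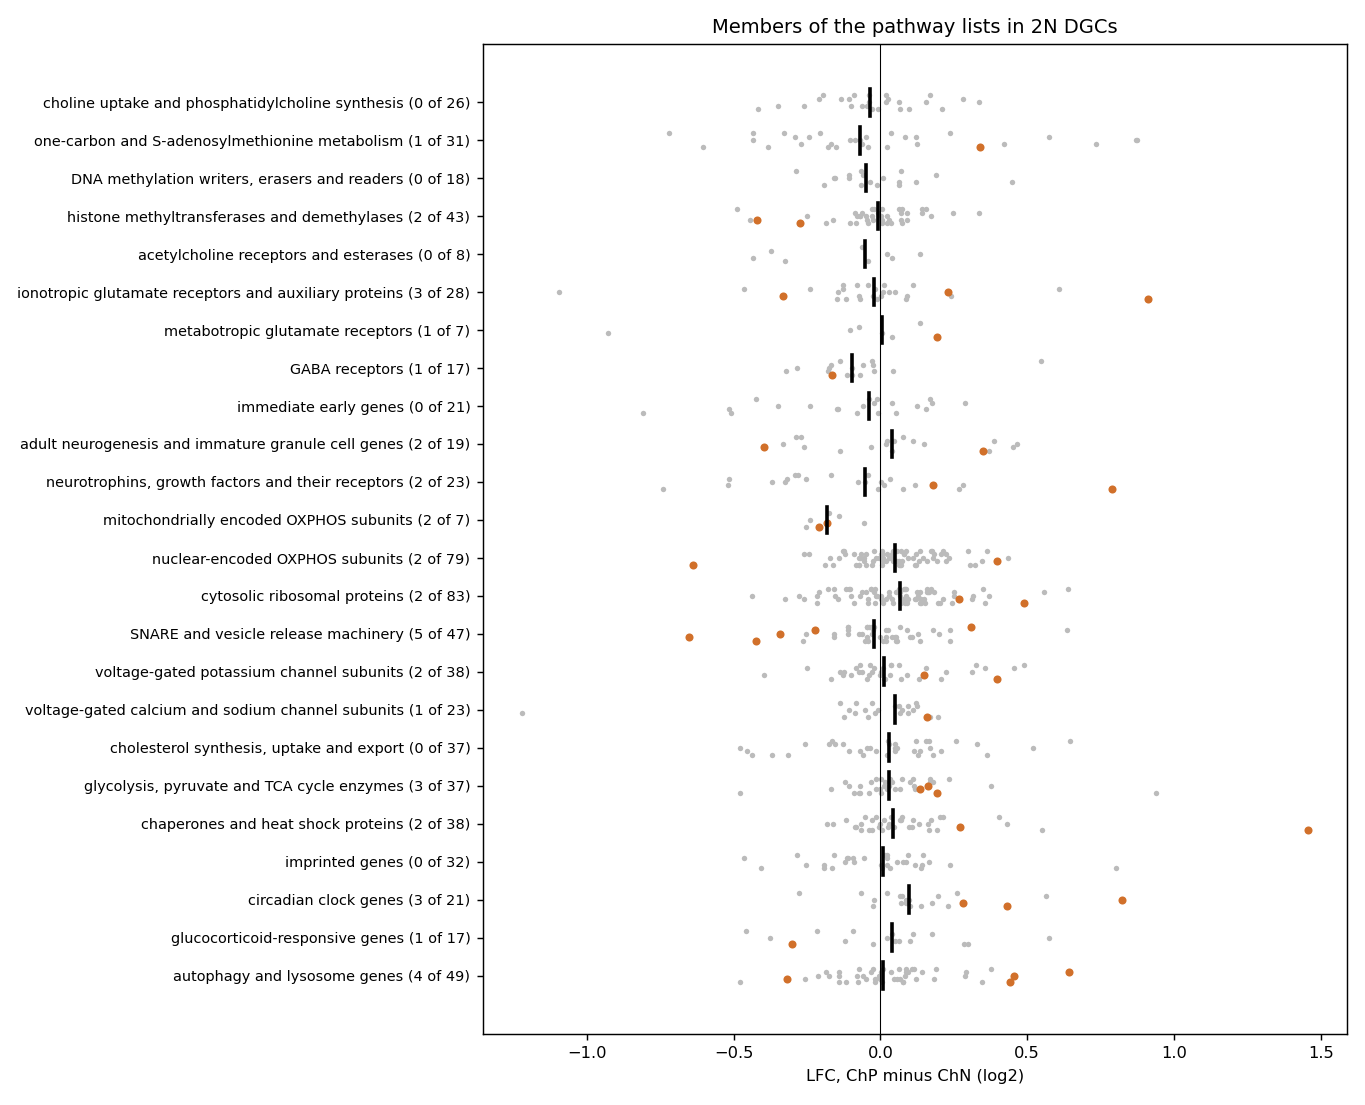
LFC of every tested member of the 24 pathway lists (points; orange, unadjusted p under 0.05), with the list median as a black line and the number of DEGs of genes tested in brackets. The medians lie between -0.18 and 0.10, and the choline, DNA methylation and acetylcholine receptor lists hold no orange point.

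The DEGs were spread unevenly over gene types. Loci of the annotation type TEC, unspliced transcript models that await experimental checking, made up 745 of the genes tested and gave 82 DEGs (11%), 79 lower in ChP and 3 higher. This type was not among the lists set beforehand and was singled out after the results were seen. Its loci may vary together within a library, so they are not independent and their counts are a description. Protein-coding genes gave 581 of 11394 (5.1%), 317 higher and 264 lower, and lncRNA genes 49 of 723 (6.78%), 17 higher and 32 lower. The lncRNA share of counts differed (ChP minus ChN) by -0.259 percentage points over all mice and by 0.301 among mice of prefix 15 (exact permutation p = 0.247 and 0.133). The median LFC was -0.32 over all tested TEC loci, against -0.0058 over all genes. TEC loci held 0.643 ± 0.093% of the counts in ChN (SD, n = 6; 0.553 to 0.773%) and 0.525 ± 0.088% in ChP (SD, n = 7; 0.434 to 0.677%). The ranges overlapped, and the difference did not hold after adjustment (exact permutation test, two-sided, p = 0.0408, adjusted p = 0.175 over 7 measures). Among mice of prefix 15 it was -0.104 percentage points (exact permutation p = 0.333, where 0.0667 is the smallest these 6 mice allow).

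Most TEC loci were intronic, and so were most of the lower ones. Of the 745 tested, 593 lay within a protein-coding gene on the same strand without touching its exons. Of these 593, 72 were DEGs (12.1%, beside 11% of all TEC loci), 70 of them lower. The 24 same-strand loci that touched an exon gave 5 DEGs (20.8%), all lower, and a median LFC of -0.30. The 84 loci outside protein-coding genes gave 4 (4.76%), all lower, and a median of -0.22. The 44 loci on the opposite strand of a protein-coding gene had 1 DEG and a median LFC of 0.0013. The host genes of the 70 lower intronic loci, taken once per locus, had a median LFC of -0.05. The host was below 0 for 48 of the 70 loci and a DEG for 5, beside 5.1% of all protein-coding genes. The locus with the smallest p was Gm42770 at chr5:49281929-49286083, in the potassium channel interacting protein gene Kcnip4, at 35.9 to 63.7 CPM in ChN and 20.9 to 43.5 CPM in ChP (LFC -0.79 ± 0.18, adjusted p = 0.189), while Kcnip4 itself was at -0.05. A630036G19Rik at chr16:74827740-74831819, in the axon guidance receptor gene Robo2, was 25.8 to 74.5 and 23.7 to 46.1 CPM (LFC -0.77 ± 0.18), and Robo2 was at -0.05. These loci were named after their values were seen.

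The median LFC of TEC loci was negative at each level of counts. Among genes with a mean count of 10 to 20 per library, 27 of 83 TEC loci were DEGs (32.5%, median LFC -0.33), against 79 of 1970 protein-coding genes (4.01%, median -0.0026), and 71 of the 83 TEC loci had a negative LFC (85.5%). Most TEC loci (462) had a mean count under 5, where 28 were DEGs (6.06%), against 3.71% of protein-coding genes. At 5 to 10 counts the shares were 8.93% and 4.13%, and at 20 to 50 they were 41.4% and 5.48%. At 50 or more, 0 of 3 TEC loci were DEGs. Without the 3 shallow libraries 80 TEC loci were lower and 4 higher (11.3%, beside 5.4% of all genes). Within prefix 15 the counts were 44 and 1 (6.04%, beside 4.53%), with a median of -0.26. After thinning to equal depth they were 19 and 1 (5.22%, beside 4.01%), also with a median of -0.26. In the other diet contrasts the median LFC of TEC loci was -0.11 in Ts DGCs, -0.05 in 2N CA3 PNs and 0.07 in 2N CA1 PNs. The difference between these medians was not tested. Lower and higher DEGs numbered 33 and 6 of 952 TEC loci in Ts DGCs (4.1%, beside 3.94% of all genes). They numbered 5 and 9 of 513 in CA3 PNs (2.73%, beside 4.08%) and 5 and 13 of 592 in CA1 PNs (3.04%, beside 2.24%).

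**Figure D4:**
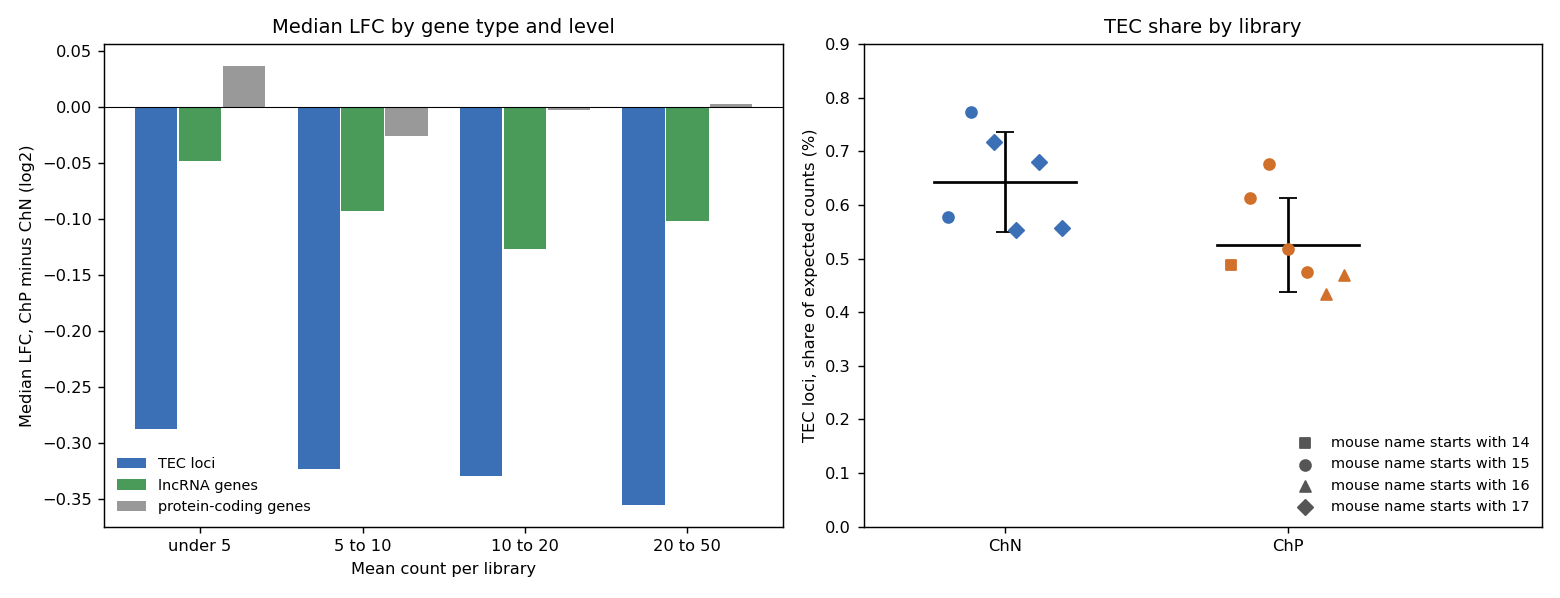
Left, median LFC of TEC loci, lncRNA and protein-coding genes by mean count per library; TEC loci are at -0.29 to -0.36 at the 4 levels shown. Right, share of expected counts in TEC loci in each library, with mean and SD; marker shapes give the prefix of the mouse name, and the ranges of ChN (0.553 to 0.773%) and ChP (0.434 to 0.677%) overlap.

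By position, chromosome 5 had 88 DEGs of 951 genes tested (9.25%), and the other autosomes 4.22 to 7.41%. At equal depth the share on chromosome 5 was 4.09%, against 4.01% of all genes, and within prefix 15 it was 5.36% against 4.53%.

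The diet contrast of 2N DGCs was set beside that of Ts DGCs, whose libraries it does not share. In Ts DGCs (9 ChP, 6 ChN) 569 of 14449 genes were DEGs (3.94%) and 0 passed the correction. Of the 725 DEGs of 2N DGCs tested there, 427 had the same sign (58.9%), against 52.2% of all genes tested in both. DEGs in both numbered 30 (4.14% of these 725, 5.68% of the Ts DEGs that were tested in both), 26 with the same sign. Bhlhe40 (LFC 0.23 ± 0.10 in Ts) and Ntrk2 (0.18 ± 0.07) were among them. Gfra2 was at 0.18 ± 0.13 in Ts DGCs, Hcn2 at -0.08 ± 0.15, Camk2n1 at 0.04 ± 0.10 and Rhobtb3 at 0.36 ± 0.25.

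The difference in diet effect between genotypes was tested as an interaction over all 28 DGC libraries. An unadjusted p under 0.05 was found for 656 of 16537 genes (3.97%), and 0 genes had an adjusted p under 0.05 (edgeR, smallest 0.704). Among the genes named first, 7 of the 8 higher and 5 of the 8 lower had an unadjusted interaction p under 0.05. They were chosen by their 2N difference, so this count is a description. The differences in LFC (2N minus Ts) were 0.61 for Gfra2 and -1.33 for Rhobtb3.

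In PNs of 2N mice, the same animals gave 532 DEGs of 13050 genes in CA3 (4.08%, 7 ChP and 5 ChN libraries, 1 gene with an adjusted p under 0.05) and 290 of 12942 in CA1 (2.24%, 7 and 6 libraries, 0 genes). Gfra2 had LFCs of 0.14 ± 0.97 in CA3 PNs and -0.39 ± 0.70 in CA1 PNs, too imprecise to set against DGCs. Hcn2 was at -0.15 ± 0.13 and 0.08 ± 0.17, Camk2n1 at -0.16 ± 0.10 and -0.27 ± 0.16, and Slc25a51 at -0.25 ± 0.14 and -0.16 ± 0.29. Ddhd1 was a DEG in CA3 PNs too (LFC -0.30 ± 0.13). For the difference in diet effect, 690 of 16139 genes (4.28%) had an unadjusted p under 0.05 against CA3 and 529 of 15933 (3.32%) against CA1, and 0 passed the correction in either. With the mouse as a block, 7 genes passed it against CA3 and 0 against CA1.

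**Figure D5:**
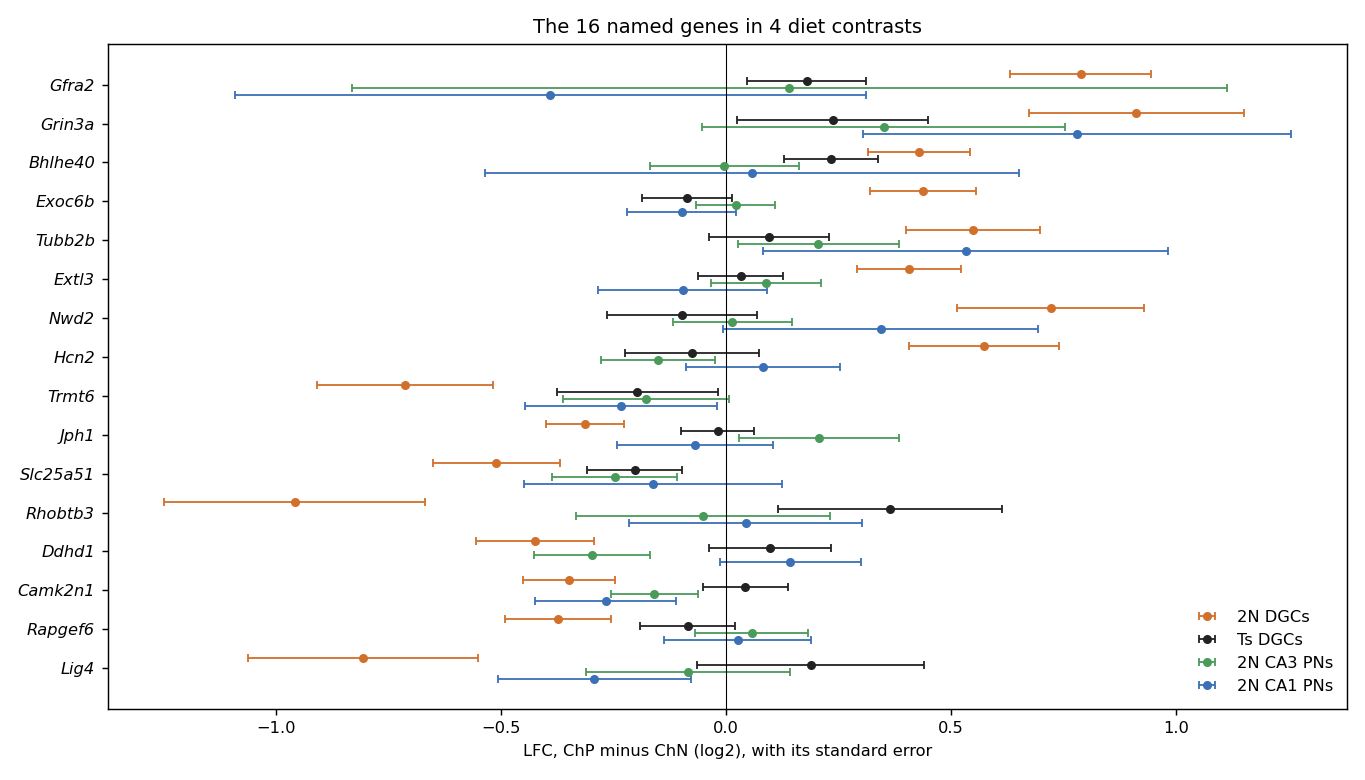
LFC by maternal diet (ChP minus ChN, bars are SE) of the 16 genes named first, in 2N DGCs (orange, the contrast they were chosen in), Ts DGCs (black), 2N CA3 PNs (green) and 2N CA1 PNs (blue). Gfra2 is at 0.79 in 2N DGCs and 0.18 in Ts DGCs, and most other bars in the 3 other contrasts reach or cross 0.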

How the data were processed

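RNA-seq libraries were made from laser-captured DGCs of single mice with a stranded total RNA kit. Per the study's methods, the authors checked reads with FastQC, trimmed them where needed with Trimmomatic, aligned them to GRCm39 with STAR and quantified genes with RSEM. The labels name mm10 beside GRCm39, and the annotation release behind the deposited counts may differ from the one used here for positions. The authors deposited RSEM's expected counts, without normalization, and TPM per library. RSEM divides reads shared by paralogs and pseudogenes, so their counts are uncertain. Matrix and single-library expected counts were equal in all 13 libraries, and no pair of libraries of a diet agreed within sampling noise (chi-square per degree of freedom of 1.65 to 4.36 over 6781 genes).

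Expected counts were rounded. Genes over 0.1 CPM in at least 10 libraries were tested with edgeR 4.0.16 in R 4.3.3 (TMM, estimateDisp, glmQLFit with robust estimation, glmQLFTest, two-sided), with Benjamini-Hochberg adjustment across every tested gene. Covariates named by the study were not used here. At these totals 0.1 CPM is 0.036 to 0.147 of a count, so depth limits low genes. The standard error of the LFC gives the precision between mice, taken as independent. CPM were scaled by TMM, except sums over marker lists and values of untested genes. TPM served only to compare levels between genes. Symbols and positions came from GENCODE vM39 (GRCm39), which matched 56310 of 57010 identifiers. Single values per library were compared with exact permutation tests over 1716 splits.

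The members, gene lists and rules were chosen with earlier results of these data known. Genes named first are the 8 higher and the 8 lower with the smallest unadjusted p, because none had an adjusted p under 0.05, leaving out models with no gene name. In each list up to 4 DEGs were named (1 such gene is not reported here), and a fixed set of 21 choline, methylation and DGC genes was given whatever its p. The CA3 library of mouse 15-145 is labelled Ts, unlike the other libraries of that mouse, and was left out of the 2N contrasts.

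Same-mouse libraries of 2 populations come from 1 animal. Their residuals correlated at a median of 0.118 with CA3 (0.0293 to 0.272 over 12 pairs, -0.0138 between mice) and 0.0928 with CA1 (-0.0507 to 0.203 over 13 pairs), so the mouse was tried as a block there. Alternatives were DESeq2 1.42.0, limma-voom (limma 3.58.1), library totals, 1 surrogate variable (sva 3.50.0), no filter, filterByExpr (minimum count 10), all 28 DGC libraries, the mouse-name prefix as a factor or prefix 15 alone, library total as a covariate, thinned counts and leaving out each library. Leaving out the 3 shallow libraries and using protein-coding genes only were chosen after seeing the data. Fits of fewer than 12 libraries used the genes of the full fit. The test was tried on simulated counts. Figures were drawn with matplotlib 3.10.9 in Python 3.11.15.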

Additional observations from a re-analysis of the deposited data

Results flagged for a closer look

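Of 156 groups of libraries examined, 11 held a lowest or highest library whose gap to the next exceeded Dixon's critical value, and chance flags about 1 in 20. In ChN, mouse 17-21 was low for Gfra2 (22.2 CPM, next 43.0) and high for Rorb (12.8 CPM, next 5.28). Mouse 17-172 was low for Slc44a1 (57.0 CPM, next 63.3), and mouse 17-56 was high for Dnmt1 (85.5 CPM, next 71.4). In ChP, mouse 16-273, a shallow library, was high for Lig4 (19.2 CPM, next 12.8) and Gpr17 (27.5 CPM, next 6.15). Mouse 15-269 was low for Rapgef6 (62.2 CPM, next 72.9), mouse 15-296 was low for Nr3c1 (67.7 CPM, next 96.6), and mouse 14-125 was low for Kcng2 (33.4 CPM, next 53.2). Mouse 16-90 was high for Rps3 (687 CPM, next 536), and mouse 15-334 was high for Hspa4l (195 CPM, next 136). Without mouse 17-21 the adjusted p of Gfra2 was 0.449, in place of 0.0607.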

How the results depend on the processing

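The count of DEGs (728) stayed within 1.5 times under every alternative except no filter (1312) and counts thinned to the smallest total (447), and leaving out each library gave 607 to 778. As 659 would be the number if no gene differed, a steady count does not mean that the same genes were called. Of the 728, 182 (25%) were also DEGs with the prefix as a factor and 129 (17.7%) after thinning. Genes with an adjusted p under 0.05 numbered 0, and 1 with library totals (Gfra2), 1 with all 28 DGC libraries (Gfra2), 10 without a filter (of 22666 genes), 2 with the prefix as a factor (Adgrl3 and Gm20683) and 3 among prefix 15 alone (those and Lpl); leaving out each library gave 0 to 4, the 4 without ChN mouse 15-145. DESeq2 and limma-voom gave 0, with smallest adjusted p of 0.0932 and 0.365. No paired analysis was possible because the diets share no animals. Between populations, with the mouse as a block, 7 genes passed the correction against CA3 in place of 0, and 0 against CA1 in both fits. Unadjusted calls went from 690 to 787 against CA3 and from 529 to 468 against CA1. Among prefix 15, totals, genes detected and the mitochondrial share kept their direction, and the lncRNA share reversed (-0.259 to 0.301 percentage points).

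Of the 16 genes named first, 188 of 208 calls under other settings kept direction and side of the threshold, 18 lost it and 2 reversed. Of the 36 DEGs named through lists, 302 of 463 calls held, 154 were lost and 7 reversed, and 1 gene was a DEG under every setting. With the prefix as a factor and then among prefix 15 alone, LFCs reversed for Tubb2b (-0.00301 and -0.0097), Gsg1l (0.04 and 0.034), Unc13b (0.0104 and 0.00366), Sv2c (0.0358 and 0.0275), Chpt1 (0.267 and 0.273), Dnmt1 (0.0621 and 0.0554), Dnmt3a (0.0855 and 0.0777), Dcx (0.244 and 0.244), Bdnf (0.0546 and 0.0475), Chrm1 (-0.0841 and -0.0923) and App (-0.0187 and -0.0266). Thinned counts reversed Syn3 (0.198), Chka (0.0688), Chkb (0.227), Chpt1 (0.2), Dnmt1 (0.00647) and Chrm1 (-0.0358). Limma-voom reversed Chpt1 (0.123) and Ahcy (0.0587), 1 surrogate variable Chka (0.00386), library total as a covariate Chpt1 (0.174), and leaving out the shallow libraries Chpt1 (0.0652). Leaving out 1 library reversed LFCs within ranges of -0.0874 to 0.0317 for Chka, -0.232 to 0.129 for Chpt1, -0.131 to 0.00402 for Dnmt1, -0.139 to 0.0131 for Bdnf and -0.0247 to 0.0651 for Chrm1. The cause was not tested. In the 7 mice outside prefix 15, prefix cannot be told apart from diet. Totals overlapped between diets, and with the library total as a covariate 588 genes were DEGs, 405 of them among the 728.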

Other observations

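Some DEGs outside the naming rule were singled out after their values were seen, for a large LFC at a high level. Fry, a scaffold of NDR kinase signalling on chromosome 5, was 369 to 663 CPM in ChN and 159 to 467 CPM in ChP (LFC -0.68 ± 0.21, adjusted p = 0.782 in edgeR). Frrs1l, an AMPA receptor assembly factor, was 405 to 697 and 257 to 649 CPM (LFC -0.60 ± 0.24, adjusted p = 0.873). Snhg1, a small nucleolar RNA host gene, was 120 to 243 and 199 to 483 CPM (LFC 0.52 ± 0.23, adjusted p = 0.873). The groups overlapped in all 3. Fry and Frrs1l were also lower DEGs in CA3 PNs (LFC -0.79 and -0.47) and CA1 PNs (-0.98 and -0.68). Those libraries came from the same 2N mice, so they are no repeat in other animals. Neither gene was a DEG in Ts DGCs, but 0 genes passed the correction for a difference in diet effect between genotypes. The snRNA gene Gm25189 had an LFC of 2.41, with a range in ChP of 1.82 to 519 CPM.

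Of the 12 genes whose groups did not overlap, 3 are described above and 5 here. On the higher side were Gss, glutathione synthetase, at 8.5 to 23.4 CPM in ChN and 25.3 to 55.6 CPM in ChP (LFC 0.75 ± 0.22, adjusted p = 0.782), and Slc24a3, a sodium, potassium and calcium exchanger, at 68.3 to 74.9 and 79.7 to 104 CPM (LFC 0.28 ± 0.12, adjusted p = 0.839). On the lower side were Zmym6 at 59.6 to 76.0 and 33.0 to 53.6 CPM (LFC -0.43 ± 0.14, adjusted p = 0.782), the claudin Cldn12 at 34.4 to 42.0 and 12.8 to 33.8 CPM (LFC -0.57 ± 0.18, adjusted p = 0.782) and the JNK scaffold Spag9 at 378 to 468 and 324 to 374 CPM (LFC -0.18 ± 0.07, adjusted p = 0.85). None of them had an adjusted p under 0.05. The other 4 were Lbhd1, C030014I23Rik and Cracr2a, higher in every ChP library, and Gm15902, lower.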
